A study of Homo sapiens with 4 samples.

Results

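The 10 genes described here encode the integrin-linked kinase complex and the tensins, adaptor proteins that sit at the cytoplasmic face of integrin adhesions. They are ILK, the PINCH proteins LIMS1 and LIMS2, the parvins PARVA and PARVB, the Ras suppressor RSU1, and the tensins TNS1, TNS2, TNS3 and TNS4. They were chosen by name and not by a rule on measured values, but with earlier results of these data known. All 10 were found among the 60721 genes of the count table through their Ensembl identifiers. RNA abundance was measured by sequencing of polyadenylated RNA from Hs578T cells, an established line from a human breast carcinoma. All cells were co-transfected with GFP and received 1.6 µM of RNA, either a non-targeting control (SCR, 2 libraries) or an siRNA against TLN1 (siTLN1, 2 libraries), and were collected after 48 h. TLN1 encodes talin-1, the adaptor that binds integrin tails and actin. The model is 1 cell line and 1 siRNA condition, and how the replicate cultures were prepared is not given in the sources used here beyond their being biological replicates.

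Integrins have no enzymatic activity of their own, and a set of adaptors connects their tails to actin. ILK, a pseudokinase, binds a PINCH protein through its ankyrin repeats and a parvin through its kinase-like domain, and the 3 proteins stabilise each other in a complex known as IPP (ILK, PINCH, parvin). RSU1 joins it by binding PINCH1. Kindlins recruit the complex to integrins and parvins bind actin. Tensins bind integrin tails at a site that talin also uses and are known for the elongated fibrillar adhesions that assemble fibronectin matrix. The comparison asked whether the transcripts of these genes differed after siRNA against TLN1.

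None of the 10 genes passed the test. Of the 9 that were expressed enough to be tested, 0 had an adjusted p under 0.05 (edgeR's quasi-likelihood fit, Benjamini-Hochberg adjusted), where 6.07% of the 16137 genes tested did (2.3% higher and 3.77% lower), and 0 of the 9 had an unadjusted p under 0.05, where 19.8% of all genes did. Their log2 fold changes ran from −0.19 for LIMS2 to 0.22 for TNS3, with standard errors (SE) from 0.091 to 0.11. The median was −0.068 over the 9 genes and 0.0033 over all genes tested, and that of the 9 genes became −0.013 with SCR library a left out and 0.0024 with siTLN1 library b left out. The median size of the change was 0.11 among them and 0.12 among the 10486 tested genes at 5 CPM (counts scaled to library size) or more. The 95% intervals of the 9 genes lay between −0.40 and 0.44 on the log2 scale, so changes beyond these bounds lie outside every interval. The count of 0 also held with RLE scaling (6.07% of all genes called), total counts as the scale (7.76%), a mean of at least 10 counts as the filter (6.25%), no filter (2.03%), the exon-length trend removed (9.17%), DESeq2 (6.61%), limma-voom (5.89%) and limma-trend on the deposited log2 CPM (5.99%). It was 1 of 9, TNS3 (adjusted p 0.00492), where the limma-trend fit took the replicate number as a block, a fit that called 22.6% of all genes.

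The targeted gene was low in both libraries labelled siTLN1. TLN1 was at 868 and 874 CPM in SCR against 51.9 and 44.8 CPM in siTLN1, which is a log2 fold change of −4.17 (SE 0.11). The libraries held between 31854322 and 46353297 counts. The column names of the count table carry 1 of 2 numbers, each found once per group, that match no label, and the libraries are called a and b by them. Of 5 mesenchymal markers, all were tested. Their summed level was 28294 to 30991 CPM in SCR and 31517 to 36844 CPM in siTLN1, mostly FN1. FN1 itself did not pass in edgeR's fit (log2 fold change 0.25, SE 0.14, adjusted p 0.343). VIM, ZEB1 and SNAI2, with log2 fold changes of 0.023, −0.088 and −0.013, did not pass either. Among these markers CDH2 (N-cadherin) fell from 569 and 535 CPM in SCR to 303 and 293 CPM in siTLN1. The log2 fold change of CDH2 was −0.89 (SE 0.095, adjusted p 2.4e-05). The 7 epithelial markers summed to 123 to 153 CPM in SCR and 132 to 143 CPM in siTLN1, mostly KRT18. EPCAM, KRT19 and ESRP1 were too low to test, although the labels describe the cells as epithelial. KRT18, KRT8, CLDN4 and CDH1 were tested, and none passed in edgeR's fit. KRT8 was at 17.2 and 20.7 CPM in SCR (log2 fold change −0.24, adjusted p 0.301). CDH1 was at 0.41 and 0.52 CPM in SCR and 0.80 and 0.85 CPM in siTLN1 (log2 fold change 0.83, adjusted p 0.192). The 4 leukocyte and endothelial markers summed to at most 5.1 CPM in any library, with CD3E at 0.

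The 7-base word GACAACA, which was singled out from these data, occurs in the TLN1 coding sequence. Since the word was chosen on these libraries, the medians that follow describe that choice and support nothing. Among 9494 protein-coding genes at 5 CPM or more with a 3′ UTR of at least 100 bases, 7.97% held it there, with a median log2 fold change of −0.097, against 0.015 for the 7342 genes without it in the 3′ UTR or coding sequence. The word was searched on the transcript strand of 1 transcript a gene (GENCODE 29). A coding copy was held by 16.1% of the 9494 genes. The word was found in 3 of the 10 genes described here, and these sites are shown beside the TLN1 site as a description of which genes hold it. They read 5′ to 3′, and capitals mark the word:
TLN1 coding sequence: gaggacctGACAACAaccctcaa
PARVA 3′ UTR: gtgttcatGACAACAgcaatgca
ILK coding sequence: tgtggctgGACAACAcggagaac
TNS1 coding sequence: ccatgccaGACAACAgcccggag

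The TLN1 word lies in exon 41 of 57 on the minus strand (GRCh38, chr9:35706037-35706043). The PARVA word lies in the last of 13 exons on the plus strand (chr11:12532121-12532127), at base 4196 of a 3′ UTR of 7431 bases. The ILK word starts at coding base 61, in exon 2 of 12 on the plus strand (chr11:6604332-6604338), and 7 of 8 coding transcripts of ILK hold it. The TNS1 word starts at coding base 4705 and spans the junction of exons 24 and 25 on the minus strand, and 7 of 16 coding transcripts hold it. PARVA is thus the single gene of the 10 with a copy in the 3′ UTR, in 1 of its 3 coding transcripts. Its log2 fold change was −0.028, as given with its error below. LIMS1, LIMS2, PARVB, RSU1, TNS2, TNS3 and TNS4 held no copy in any annotated coding transcript. The sequence of the siRNA is not given in the sources used here, and no site was tested for function.

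ILK, the scaffold of the complex, was the lowest of the 9 in CPM. It had 13.6 and 13.7 CPM in SCR and 13.8 and 13.3 CPM in siTLN1, from 433 to 625 counts a library. The siTLN1 libraries lay on either side of the SCR libraries. For ILK the log2 fold change was −0.011 (SE 0.11, interval −0.25 to 0.23, adjusted p 0.976).

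The locus of ILK limits how it can be counted. ILK (ENSG00000166333.13) lies on the plus strand of chromosome 11, from 6603708 to 6610874, and its 3′ end runs through the exons of TAF10, a subunit of the general transcription factor TFIID on the opposite strand. Of 3484 exon bases of ILK, 2736 are also exon of a minus-strand gene, 2374 of them of TAF10. This share of 78.5% was reached by 0.136% of the genes tested (22 genes, ILK included). Per the labels the kit kept strand, but the counting used no strand option, and by default a fragment is left unassigned when 2 genes are overlapped by equally many of its reads. The last 8 of the 10 exon blocks of ILK are shared at every base, so an ILK count needs a read within the 748 unshared bases at its 5′ end. TAF10 itself had 79 and 75 counts in SCR and 86 and 85 in siTLN1. Per kilobase of annotated exon ILK was at 3.92 ± 0.0093 CPM (SD, n = 2) in SCR, and per kilobase of unshared exon at 18.2 ± 0.043 CPM (SD, n = 2). In siTLN1 the values were 3.89 ± 0.0996 and 18.1 ± 0.464 (SD, n = 2). Both scales are uncertain for ILK, since fragments that reach into shared exons were counted only in part. The overlap is the same in every library, and its part in the comparison of groups was not tested.

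**Figure D1:**
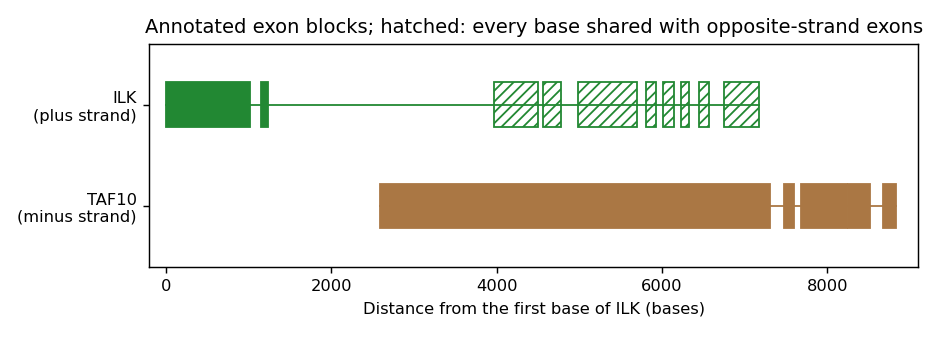
Exon blocks of ILK and TAF10 by distance from the first base of ILK, in bases, with hatching where every base of an ILK block is also exon of an opposite-strand gene. The 8 hatched blocks of 10 leave the first 2 blocks as the source of ILK counts.

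The PINCH proteins, built of LIM domains, bind the ankyrin repeats of ILK. LIMS1, which encodes PINCH1, was at 129.7 and 116 CPM in SCR and at 125 and 110.2 CPM in siTLN1. Library a was above library b in both groups, and the groups overlapped. LIMS1 had a log2 fold change of −0.068 (SE 0.099, interval −0.28 to 0.14, adjusted p 0.780). LIMS1 (ENSG00000169756.16; chromosome 2, 108534355 to 108687246, plus strand) has the close relatives LIMS3 and LIMS4, which had 0 counts in all 4 libraries. Their annotated exons hold 2773 and 2553 bases, against 7771 for LIMS1, and how alike the sequences are was not measured. Reads that fit several of these genes could have been left uncounted, so the level of LIMS1 and the counts of 0 are uncertain.

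LIMS2, which encodes PINCH2, was lower than LIMS1 at 36.1 and 40.9 CPM in SCR and at 32.99 and 34.7 CPM in siTLN1. Both siTLN1 libraries lay below both SCR libraries. Its log2 fold change was −0.19 (SE 0.10, interval −0.40 to 0.031, adjusted p 0.341). LIMS2 (ENSG00000072163.19) lies on chromosome 2, 127638381 to 127681786, minus strand, and shares 2.31% of its exon bases with an opposite-strand gene.

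The parvins, which bind ILK and actin through calponin homology domains, were represented by PARVA and PARVB. PARVA (alpha-parvin) was at 205 and 173 CPM in SCR and at 189 and 182 CPM in siTLN1. Both siTLN1 libraries lay within the range of the SCR libraries. PARVA had a log2 fold change of −0.028 (SE 0.10, interval −0.24 to 0.18, adjusted p 0.919). PARVB (beta-parvin) was at 49.5 and 53.2 CPM in SCR and at 45.6 and 48.1 CPM in siTLN1. The groups of PARVB did not overlap, and its log2 fold change was −0.13 (SE 0.097, interval −0.34 to 0.073, adjusted p 0.501). PARVA (ENSG00000197702.14) lies on chromosome 11, 12377563 to 12535356, and PARVB (ENSG00000188677.14) on chromosome 22, 43999211 to 44172949, both on the plus strand.

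RSU1 (ENSG00000148484.18; chromosome 10, 16590611 to 16817463, minus strand) encodes the leucine-rich repeat protein that binds PINCH1. It was at 158 and 162 CPM in SCR and at 144 and 152 CPM in siTLN1. The groups did not overlap, with siTLN1 lower. RSU1 had a log2 fold change of −0.11 (interval −0.30 to 0.079, adjusted p 0.547), and its SE of 0.091 was the smallest of the 9. Its pseudogene copies RSU1P1, RSU1P2 and RSU1P3 held at most 1 count in any library.

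TNS3 (tensin-3) was the highest of the 10 in CPM and had the most positive log2 fold change among them. It was at 253 and 224 CPM in SCR and at 299 and 256 CPM in siTLN1. The siTLN1 libraries lay above the SCR libraries, but siTLN1 library b was above SCR library a by little, and library a was the higher one in both groups. Mean levels of TNS3 were 239 ± 20.6 CPM for SCR and 278 ± 30.0 CPM for siTLN1 (SD, n = 2 each). For TNS3 the log2 fold change was 0.22 (SE 0.10, interval −0.0018 to 0.44), with an unadjusted p of 0.0517 and an adjusted p of 0.257 in edgeR's fit, and 20.1% of the genes tested had a smaller p. TNS3 (ENSG00000136205.17) lies on chromosome 7, 47275154 to 47582558, minus strand, and shares no exon base with another gene.

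TNS1 (tensin-1), a tensin with an actin-binding N-terminal region, was at 141 and 137 CPM in SCR and at 152 and 137 CPM in siTLN1. The groups overlapped, with siTLN1 library a above the other 3 libraries. TNS1 had a log2 fold change of 0.059 (SE 0.094, interval −0.14 to 0.26, adjusted p 0.799). TNS1 (ENSG00000079308.19) lies on chromosome 2, 217799588 to 218033982, minus strand, and its antisense gene TNS1-AS1 shares 179 exon bases and held at most 3 counts in any library.

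TNS2 (tensin-2), which resembles TNS1 and TNS3 in domains, was at 37.2 and 44.6 CPM in SCR and at 36.1 and 36.2 CPM in siTLN1. The SCR libraries lay apart from each other and both above the siTLN1 libraries, which were nearly equal. TNS2 had a log2 fold change of −0.18 (SE 0.11, interval −0.40 to 0.044, adjusted p 0.376). TNS2 (ENSG00000111077.17; chromosome 12, 53046969 to 53064372, plus strand) shares 5.40% of its exon bases with opposite-strand genes. One of these, TNS2-AS1, shares 380 exon bases and had from 52 to 80 counts a library, against 1183 to 1700 for TNS2. The other, SPRYD3, shares 57 exon bases and had from 1509 to 2398 counts a library.

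TNS4, the short tensin without the actin-binding region (also called Cten), was not detected. It had 0 counts in 3 libraries and 1 count in siTLN1 library a. A count of 0 allows up to 3 counts, or 0.0944 CPM in the smallest library, for counting error only. TNS4 (ENSG00000131746.13; chromosome 17, 40475828 to 40501623, minus strand) was therefore not tested, and no fold change is given.

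**Figure D2:**
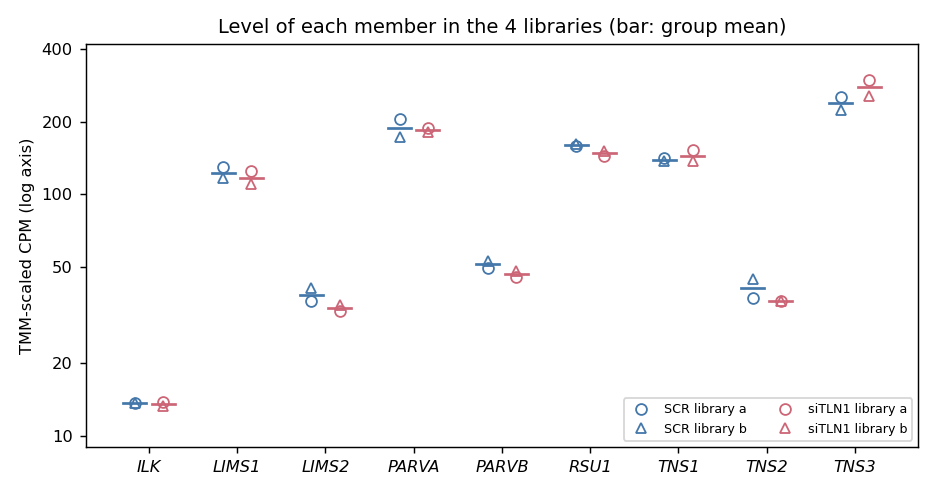
TMM-scaled CPM (log axis) of the 9 tested genes in each of the 4 libraries, with a bar at each group mean (n = 2). The groups stand apart without overlap for LIMS2, PARVB, RSU1, TNS2 and TNS3, with TNS3 as the one that is higher in siTLN1.

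In all, 5 of the 9 genes had no overlap of libraries between groups, where 48.4% of all tested genes had none, so the count is near the background. LIMS2, PARVB, RSU1 and TNS2 were lower and TNS3 was higher in both siTLN1 libraries. The libraries also differed by letter. Library b was above library a in both groups for LIMS2, PARVB, RSU1 and TNS2 and below it in both for LIMS1, PARVA, TNS1 and TNS3, with ILK mixed. For TNS3 the log2 difference between b and a was −0.18 in SCR and −0.22 in siTLN1, about as large as its difference between groups, which was 0.24 between the a libraries and 0.19 between the b libraries. For LIMS2 the difference between groups was −0.13 (a) and −0.24 (b), and for TNS2 it was −0.045 (a) and −0.30 (b). The b minus a difference of LIMS1 was −0.16 in SCR and −0.18 in siTLN1, and that of PARVA was −0.25 and −0.054. The labels do not say what the letters mark.

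**Figure D3:**
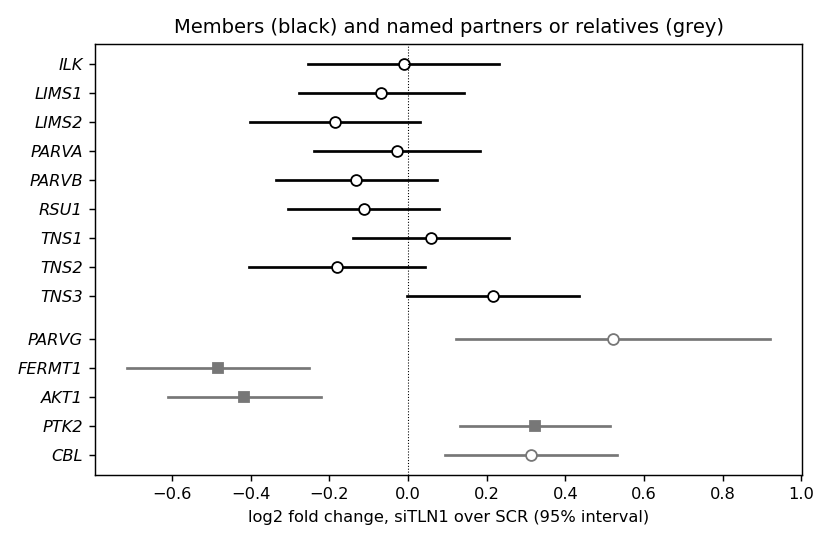
Log2 fold change, siTLN1 over SCR, with 95% intervals for the 9 tested genes (black) and for named partners and relatives (grey); filled squares passed an adjusted p of 0.05. The intervals of all 9 genes include 0, and FERMT1, AKT1 and PTK2 passed.

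Levels can be compared between genes per kilobase of annotated exon. On this scale RSU1 led in SCR at 38.8 ± 0.657 CPM per kilobase (SD, n = 2), followed by TNS3 at 20.3 ± 1.75, LIMS1 at 15.8 ± 1.21 and PARVA at 15.2 ± 1.82. LIMS1 and PARVA, the main PINCH and the main parvin, differed by less than their spread. TNS1 followed at 8.54 ± 0.166, PARVB at 6.94 ± 0.350, TNS2 at 5.06 ± 0.647 and LIMS2 at 4.53 ± 0.395 CPM per kilobase (SD, n = 2 each). The means of TNS2 and LIMS2 differed by less than the SD of TNS2. ILK came last of the tested genes, at 3.92 on the same annotated length. The place of ILK is uncertain, since 78.5% of its exon bases are shared with opposite-strand genes. Per kilobase of unshared exon ILK was at 18.2 ± 0.043 CPM in SCR (SD, n = 2). The annotated lengths cover every isoform, so a gene with long rarely used exons appears lower than it is. Over the 4 libraries, RSU1 stood at the 93.5th percentile of the level per annotated kilobase among the genes tested. TNS3 stood at the 88.3rd and LIMS2 at the 55.9th.

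Within each family, 1 paralog took most of the level per kilobase in every library. LIMS1 made up 79.7% and 75.7% of the PINCH level in SCR and 80.5% and 77.6% in siTLN1. PARVA made up 71.1% and 65.9% of the parvin level in SCR and 71.1% and 69.2% in siTLN1. The parvin level was summed over PARVA and PARVB and leaves out PARVG. The groups overlapped in both families, and the shares of LIMS2 and PARVB differed by −1.37 and −1.64 percentage points (siTLN1 minus SCR; two-sided exact permutation p of 0.667 and 1).

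Among the tensins, TNS3 made up 61.9% and 57.8% of the level in SCR and 64.8% and 62.8% in siTLN1. The share of TNS2 was 13.2% and 16.7% in SCR and 11.4% and 12.9% in siTLN1. TNS1 held 24.9% and 25.5% in SCR and 23.8% and 24.3% in siTLN1. The groups did not overlap for any of these 3 shares, which differed by 3.94 points for TNS3, −2.84 for TNS2 and −1.11 for TNS1. The shares of a family add up to a fixed sum, so the 3 differences are not separate. Each had a two-sided exact permutation p of 0.333, the smallest that 2 against 2 libraries allow, among 5 such comparisons.

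**Figure D4:**
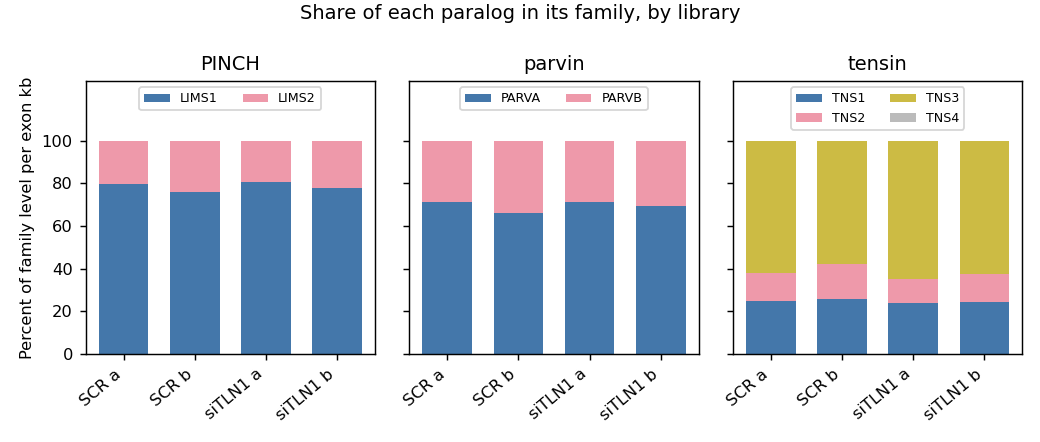
Share of each paralog in the level per exon kilobase of its family, in percent, in each library. The parvin level is that of PARVA and PARVB. LIMS1, PARVA and TNS3 hold the largest part in all 4 libraries, and TNS4 is at or near 0.

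The proteins that bind these adaptors were read from the same fit. Of 29 genes listed as partners of the IPP complex (integrin beta chains, kindlins, paxillin family, PIX and GIT proteins, AKT and GSK3 kinases and others), all were tested, 2 were lower and 0 were higher at an adjusted p under 0.05, a share near the 6.07% of all genes. The median log2 fold change was −0.057, with 18 of 29 values negative. FERMT1 (kindlin-1, an integrin co-activator) fell from 40.6 and 33.9 CPM in SCR to 27.6 and 25.8 CPM in siTLN1. FERMT1 had a log2 fold change of −0.48 (SE 0.11, adjusted p 0.0139). In the transcript searched, its 3′ UTR and coding sequence each hold 1 copy of GACAACA. Of its 3 coding transcripts, 2 hold the word in the 3′ UTR and 2 in the coding sequence. The word was chosen on these libraries, so its presence in a lower gene supports nothing. Of the 9494 genes searched, 7.97% held it in the 3′ UTR and 16.1% in the coding sequence. AKT1, a kinase placed downstream of ILK, fell from 159.8 and 151 CPM to 119 and 114 CPM, with a log2 fold change of −0.42 (SE 0.092, adjusted p 0.0117). It holds no copy of the word, and 5.94% of its exon bases are shared with opposite-strand genes. With 1 library left out, FERMT1 kept its call without SCR library b (adjusted p 0.000198) and lost it without SCR library a (0.0932), siTLN1 library a (0.0795) or siTLN1 library b (0.0895). AKT1 kept its call without SCR library a (adjusted p 0.0460) or SCR library b (0.0100) and lost it without siTLN1 library a (0.0902) or siTLN1 library b (0.0908).

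Of 18 genes listed as tensin partners (DLC family, receptor kinases, focal adhesion kinases, fibronectin and its receptor), all were tested, 1 was higher and 0 were lower, again a share near the 6.07% of all genes. The median was 0.068, with 11 of 18 values positive. PTK2, the focal adhesion kinase FAK, rose from 171 and 163 CPM in SCR to 207 and 211 CPM in siTLN1. PTK2 had a log2 fold change of 0.32 (SE 0.091, adjusted p 0.0433). The call was lost when genes with low counts were kept (adjusted p 0.0684) and in each fit that left out 1 library. The adjusted p was then 0.0836 (SCR library a left out), 0.229 (SCR b), 0.221 (siTLN1 a) or 0.178 (siTLN1 b). CBL, a ubiquitin ligase and the next by p, was at 77.7 and 69.3 CPM in SCR and 98.5 and 84.2 CPM in siTLN1 (log2 fold change 0.31, adjusted p 0.0877). CBL passed with the exon-length trend removed (adjusted p 0.0355) and without SCR library a (0.0364), and its log2 fold change was 0.20 without siTLN1 library a. ITGB1, the integrin beta chain that these adaptors serve and that stands in both lists, was at 1552 and 1346 CPM in SCR and at 1706 and 1503 CPM in siTLN1 (log2 fold change 0.15, adjusted p 0.514).

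Of the 3 close relatives of the 10 genes, LIMS3 and LIMS4 had 0 counts, and PARVG, the parvin known from blood cells, was tested. It was at 2.36 and 3.22 CPM in SCR and at 4.07 and 3.98 CPM in siTLN1. Both siTLN1 libraries were higher, with a log2 fold change of 0.52 (SE 0.19, interval 0.12 to 0.92, adjusted p 0.122). The value for PARVG was 0.32 without SCR library a and 0.77 without SCR library b, where it passed (adjusted p 0.0458). This gene shares 38.5% of its exon bases with opposite-strand genes, so its counts are uncertain.

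Leaving out 1 library at a time moved the fold changes of the 9 tested genes more than RLE or total-count scaling did. The value of TNS3 ran from 0.10 without siTLN1 library a to 0.33 without siTLN1 library b, and that of TNS2 from −0.30 without SCR library a to −0.042 without SCR library b. With SCR b left out, LIMS2 was at −0.092 and PARVB at −0.078, and with siTLN1 a left out RSU1 was at −0.075. The signs of LIMS2, PARVB, RSU1, TNS2 and TNS3 held in all 4 of these fits, and those of ILK, LIMS1, PARVA and TNS1 each turned in at least 1. None of the 9 passed in these fits, which called 6.52% (SCR library a left out), 5.44% (SCR b), 1.95% (siTLN1 a) and 4.74% (siTLN1 b) of all genes.

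**Figure D5:**
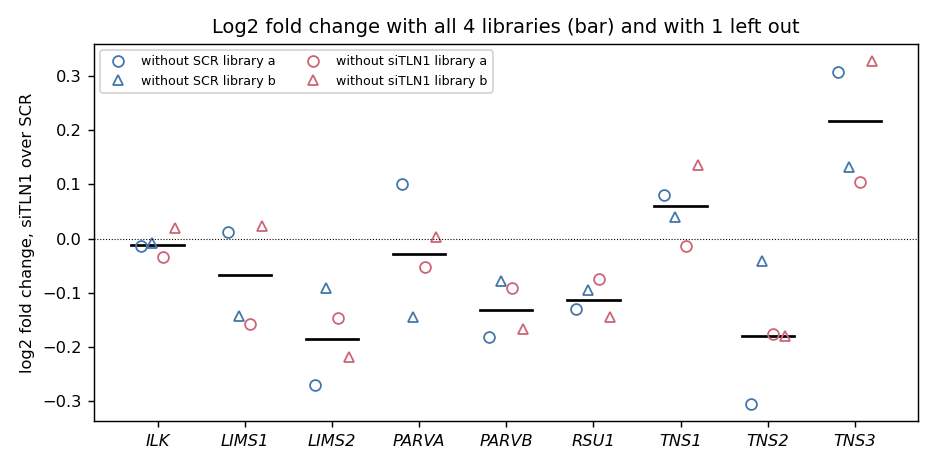
Log2 fold change, siTLN1 over SCR, with all 4 libraries (bar) and with 1 library left out (points, colored by the group it came from). The points of ILK, LIMS1, PARVA and TNS1 lie on both sides of 0.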

How the data were processed

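Sample titles gave the groups. Per the file headers, the authors ran featureCounts 2.0.0 in paired mode, with no strand or multi-mapping option, on GENCODE 33 (GRCh38), and deposited the raw counts per gene. Their exon length column, in bases and thus a unit other than counts, is part of the same deposited table. STAR 2.7.9a and edgeR 3.34.1 are named in the submitters' processing notes. The deposited log2 CPM table, which holds 16137 genes, served the limma-trend alternatives. The steps that made it are not given beyond that in the sources used here. The count columns match a group but no replicate number of the labels.

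Of 60721 genes, 16137 passed filterByExpr (minimum count 10, minimum total 15). Groups were compared with edgeR 4.0.16 (TMM, estimateDisp, glmQLFit robust and not legacy, glmQLFTest) at an adjusted p of 0.05 over all genes. R 4.3.3, limma 3.58.1, DESeq2 1.42.0, Python 3.11.15 and scipy 1.17.1 were used. The fits were also run on simulated counts with the same spread for all genes and no replicate effect. Those settings differ from the real libraries, so the run does not measure the error of the fits on them. CPM is TMM-scaled. More than 99.9% of each library lay in tested genes, and 0 entries named no gene. The p values of the edgeR fit rest on the spread between 2 libraries a group. In that fit the spread of each gene is drawn toward a trend over all genes.

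The genes and lists were chosen with earlier results of these data known. Named were all 10 genes, TLN1, and from each partner list every gene past the threshold, or the 2 with the smallest p where fewer than 2 passed. ITGB1 was named after its value was seen. Genes most like a member past the threshold were to be named, but none passed. Alternatives were RLE scaling, total counts, no filter, a mean of 10 counts, DESeq2, limma-voom, limma-trend with and without the replicate block, the exon-length trend removed (span 0.3) and each library left out, with the lone library of a group assumed to vary like the others. Symbols came from a table of Ensembl identifiers and word searches from GENCODE 29 transcripts.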

Additional observations from a re-analysis of the deposited data

How the results depend on the processing

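With all 4 libraries, the number of the 9 genes past an adjusted p of 0.05 stayed at 0 in each alternative except the replicate block, which gave 1 (TNS3, log2 fold change 0.22, adjusted p 0.00492, against 0.171 to 0.369 in the others). That fit takes same-numbered samples as paired. No label says that a number marks a shared preparation, and the correlation of same-numbered deviations was 0.19 over all genes and 0.54 over the 10487 genes at 5 CPM or more. In limma-trend on the deposited log2 CPM, 966 of all genes passed without the block and 3645 with it. With it CBL (adjusted p 6.8e-05) and PARVG (0.0102) also passed. Without a low-count filter ILK turned to 0.0010, the one sign of the 9 genes to change with all libraries in. The partner count was taken over the IPP partners (29 genes), the tensin partners (18) and the close relatives (3), with ITGB1 counted once. It was 3 in the main fit, where 6.07% of all genes were called. It became 19 with the replicate block (22.6% of all genes called) and 6 with the exon-length trend removed (9.17%). The count also changed with 1 library left out. With 1 library left out, log2 fold changes ran from −0.034 to 0.019 for ILK (0.019 without siTLN1 b), from −0.15 to 0.10 for PARVA (0.10 without SCR a, 0.0024 without siTLN1 b), from −0.16 to 0.023 for LIMS1 (0.012 without SCR a, 0.023 without siTLN1 b), from −0.014 (without siTLN1 a) to 0.14 for TNS1 and from −4.28 to −4.07 for TLN1. The LIMS2 share then differed by −3.37 to 0.629 points (0.629 without SCR b, 0.0725 without siTLN1 a) and the PARVB share by −4.24 to 0.966 points (0.966 without SCR b). The share differences of TNS1 (−1.43 to −0.79 points), TNS2 (−4.58 without SCR a to −1.09 without SCR b) and TNS3 (1.87 without SCR b to 6.01 without SCR a) kept their sign in every alternative run. The cause of these changes was not tested.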
